A study of Mus musculus with 48 samples.

Results

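The genes described here are 39 mouse genes of cholesterol and fatty acid synthesis and of the system that regulates both. They were taken from the 55401 gene IDs of the deposited count table by symbol, and all 39 passed the filter on low counts, which kept 15646 genes. By role, 19 encode enzymes of the sterol pathway, 7 belong to the regulatory system, and 13 act in fatty acid synthesis, elongation and desaturation. RNA was sequenced from the jejunum, the stretch of small intestine between duodenum and ileum, of mice kept in constant darkness. The control genotype was bmal1fl/fl, with floxed alleles of Bmal1 (gene symbol Arntl), whose product BMAL1 drives the transcription of other clock genes. The knockout genotype was written Bmal1iec-/-, with the loss aimed at intestinal epithelial cells, whereas the tissue sequenced was whole jejunum and so also holds muscle, immune and other cells. The sources used here name neither the promoter that drives the deletion nor the animals' age and sex. Each genotype was sampled at 6 circadian times 4 h apart, from CT1 to CT21, where CT is the hour of the internal day of animals without light cues. Every group had 4 libraries except knockout CT9, which had 3.

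Cholesterol is built from acetyl-CoA through mevalonate, isoprenoid intermediates, squalene and lanosterol. SREBP proteins, encoded by Srebf1 and Srebf2, are made as inactive membrane precursors bound to SCAP. When sterols are plentiful, INSIG proteins hold the SCAP and SREBP complex in the endoplasmic reticulum. When sterols run low the complex moves to the Golgi, where proteases release the part that enters the nucleus and raises transcription of sterol and fatty acid genes. In the small intestine these routes meet dietary fat and cholesterol, which enterocytes take up and package into lipoproteins.

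Sequences before the transcription start are shown first because the regulation just described acts there. RefSeq promoter entries on GRCm38.p6 matched 32 of the 39 genes, and Fads1, Fdft1, Fdps, Scd1, Scd2, Sqle and Stard4 had no entry. The 250 bases before each start were searched on both strands for 4 short motifs. The letters TCACNCCAC, a form of the sterol regulatory element, stood before 1 of 32 genes, Hmgcs1, and before 1.22% of all 27025 genes in the table. The E-box CACGTG, the letters bound by clock factors such as BMAL1 and also by other factors including SREBP-1, stood before 6 of 32 (Dhcr7, Elovl5, Hsd17b7, Insig1, Sc5d and Scap), or 18.8%, against 6.86% of all genes. CCAAT, read by the factor NF-Y, stood before 26 of 32, or 81.2%, against 37.5% of all genes. The D-box TTATGTAA stood before 0 of 32 and 0.977% of all genes. The 27025 genes were not limited to those detected in jejunum, whereas all 32 had passed the filter on low counts. A gene with several listed starts counted if any of them held a match. The shares are therefore not from matched sets of genes. The motifs share no letters with each other in the stretches shown, and a match is a description of letters, not of a bound site.

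The stretches shown are those of Hmgcs1, with the sterol element, of Fads2 and Elovl1, the 2 fatty acid genes with an entry and the smallest adjusted p for a control rhythm, and of Insig1, added after the matches were seen because it holds both an E-box and a CCAAT box. They run 5' to 3' on the strand of the gene, with all matches in capitals. The coordinates are chr13:119690101-119690350 (plus strand) for Hmgcs1, chr5:28071162-28071411 (plus strand) for Insig1, chr19:10101504-10101753 (minus strand) for Fads2 and chr4:118427843-118428092 (plus strand) for Elovl1, the first of its 2 listed starts.
Hmgcs1: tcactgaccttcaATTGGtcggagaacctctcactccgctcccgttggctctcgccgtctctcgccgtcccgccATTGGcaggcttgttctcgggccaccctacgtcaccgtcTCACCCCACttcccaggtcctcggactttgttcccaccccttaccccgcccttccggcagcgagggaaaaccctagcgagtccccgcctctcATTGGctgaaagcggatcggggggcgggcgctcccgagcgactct
Insig1: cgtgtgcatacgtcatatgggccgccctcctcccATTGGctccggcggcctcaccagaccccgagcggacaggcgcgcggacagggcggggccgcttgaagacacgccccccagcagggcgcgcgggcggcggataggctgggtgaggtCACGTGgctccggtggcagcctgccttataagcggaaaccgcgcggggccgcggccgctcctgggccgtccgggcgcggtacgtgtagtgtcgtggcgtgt
Fads2: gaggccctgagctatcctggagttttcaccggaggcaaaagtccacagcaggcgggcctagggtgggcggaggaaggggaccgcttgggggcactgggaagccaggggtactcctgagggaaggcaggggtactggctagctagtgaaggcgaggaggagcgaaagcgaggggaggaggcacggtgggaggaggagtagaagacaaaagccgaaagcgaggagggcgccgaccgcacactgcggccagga
Elovl1: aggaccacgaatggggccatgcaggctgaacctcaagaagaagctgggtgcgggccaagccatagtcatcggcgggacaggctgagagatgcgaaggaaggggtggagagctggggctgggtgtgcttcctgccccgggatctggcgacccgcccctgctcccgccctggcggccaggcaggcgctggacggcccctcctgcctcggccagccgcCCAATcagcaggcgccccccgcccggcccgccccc
In Hmgcs1 the capitals mark the sterol element TCACCCCAC, whose first base lies 137 bases before the start, and 3 CCAAT boxes, read here as ATTGG on the other strand. In Insig1 they mark 1 CCAAT box, read as ATTGG, and the E-box CACGTG, whose first base lies 101 bases before the start. Elovl1 holds 1 CCAAT box, 35 bases before the start, and Fads2 holds none of the 4 motifs.

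Total counts ran from 4.34 to 6.91 M per library (M, the SI prefix mega), with a median of 5.43 M. Levels below are counts per M (CPM) of the genes kept, after scaling of the libraries, given as mean ± SD over libraries. Arntl, the targeted gene, averaged from 10.4 CPM at CT9 to 78.4 CPM at CT21 in control and from 27.3 to 31.4 CPM in knockout. Its rhythm amplitude was 1.61 in control and 0.04 in knockout. Its counts cover the whole gene, so its level does not measure how much of the floxed part was lost. All 11 enterocyte markers were tested and their sum ran from 32240 to 54770 CPM in control libraries and from 31710 to 57760 in those of knockout. In the genotype mean 6 of the 11 passed the test used below, against 23.6% of all genes tested. Of these, 3 were higher (Alpi by 0.32, Fabp1 by 0.26 and Sis by 0.35 on the log2 scale) and 3 lower (Fabp2, Apoa1 and Apoa4, by -0.31, -0.31 and -0.29). A control rhythm passed for 7 of the 11, against 21.1% of all genes, and a knockout rhythm for 5, against 15.0%. Some libraries stood apart from the rest: replicates 1, 2 and 3 of knockout CT1, replicate 4 of knockout CT21 and replicate 1 of control CT21. In these 5 the spread of genes around their usual level, as an interquartile range of log2 ratios, was 0.502 to 1.06, against at most 0.394 in the other 42. The 8 T cell markers listed all fell in knockout, with a median log2 fold change of -1.30, and their summed level was 163 to 460 CPM in the control libraries and 86.7 to 177 CPM in those of knockout. The part of these 2 marker lists in the results below was not tested. In bulk tissue, fewer cells of a type and less RNA per cell cannot be told apart.

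The first comparison asked which of these genes differed between genotypes over the whole day. Of the 39 genes, 12 passed an adjusted p of 0.05 in the mean over the 6 times, or 30.8%, against 23.6% of all genes tested. The 4 that rose were Insig2, Dhcr7, Ebp and Tm7sf2, and the 8 that fell were Scd2, Srebf1, Mylip, Fads1, Insig1, Elovl5, Ggps1 and Msmo1. Among all genes 12.4% rose and 11.3% fell. The median log2 fold change was -0.05 over the 39 genes and -0.01 over all genes. All fold changes are knockout minus control on the log2 scale, with the standard error (SE) of the fit, and all adjusted p-values are from edgeR's quasi-likelihood test with Benjamini-Hochberg adjustment over all genes tested. Whether libraries come from separate mice is not stated in the labels, so p-values here measure the spread between these samples.

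**Figure D1:**
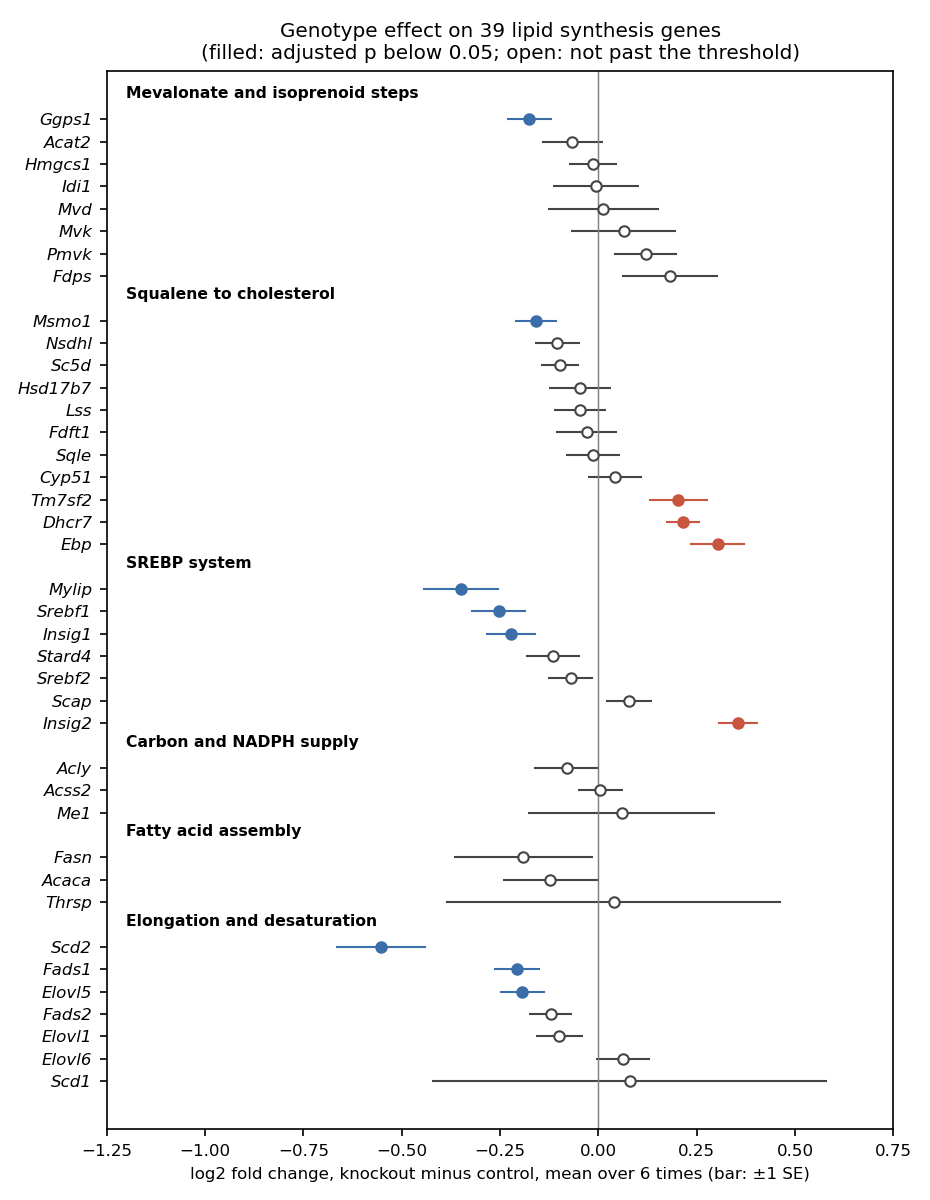
Log2 fold change (knockout minus control, mean over 6 times; horizontal axis) of each of the 39 genes, grouped by role, with bars of 1 SE. Filled points passed an adjusted p of 0.05 (red higher, blue lower) and open points did not; Insig2 lies farthest right at 0.36 and Scd2 farthest left at -0.55, and Scd1 and Thrsp have the widest bars.

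Among the 19 sterol pathway enzymes 3 rose, 2 fell and 14 did not pass, and the median log2 fold change was -0.01. The 3 that rose are among the 11 enzymes that make squalene and turn it into cholesterol. Of those 11, 7 had a fold change below 0, with Msmo1, Nsdhl, Hsd17b7 and Sc5d among them, and the median was -0.03. Ebp (chrX:8185329-8193512, mm10), the sterol isomerase that moves a double bond in the sterol ring, had a log2 fold change of 0.30 (SE 0.07, adjusted p = 9.96e-04) and a higher mean in knockout at 6 of 6 times. Its level was 49.1 to 116 CPM in the 24 control libraries (median 54.8) and 59.2 to 125 CPM in the 23 knockout libraries (median 68.1). The control and knockout libraries of Ebp did not overlap at CT1, CT9 and CT13. The highest Ebp values, 116 CPM in control CT21 replicate 1, 125 CPM in knockout CT21 replicate 4 and 115 CPM in knockout CT1 replicate 3, all came from libraries that stood apart. Without those 5 libraries the fold change of Ebp was 0.25 (adjusted p = 3.7e-06).

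Dhcr7 (chr7:143823145-143848410) encodes the reductase of the last step to cholesterol. Its level was 47.2 to 79.4 CPM in control libraries (median 59.6) and 53.3 to 88.0 CPM in knockout (median 72.0). The difference was 0.22 (SE 0.04, adjusted p = 2.13e-04), and the knockout mean was higher at 6 of 6 times. At CT1 the 4 control libraries read 47.2, 56.6, 57.8 and 57.9 CPM and the 4 knockout libraries 88.0, 80.1, 79.5 and 74.4 CPM, so the groups did not overlap. The knockout values of 88.0, 80.1 and 79.5 CPM came from libraries that stood apart. Without the 5 libraries that stood apart the CT1 fold change of Dhcr7 was 0.40, from a single knockout library. Tm7sf2, a sterol reductase earlier in the branch, rose by 0.20 (SE 0.08, adjusted p = 0.0432), from a control mean of 18.0 CPM to 20.6 CPM. It shares 12.1% of its exon bases with Vps51 on the same strand, so its counts are uncertain, and its call ended when any of 23 single libraries was left out and without the 5 libraries (adjusted p = 0.187).

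The 2 sterol enzymes that fell were Msmo1, which removes methyl groups from the sterol nucleus (-0.16, SE 0.05, adjusted p = 0.0258), and Ggps1, which makes geranylgeranyl diphosphate from the isoprenoid branch (-0.18, SE 0.06, adjusted p = 0.0196). The call of Msmo1 ended without the 5 libraries (adjusted p = 0.0813) and without knockout CT9 replicate 2. The other enzymes of the mevalonate and squalene steps had log2 fold changes from -0.10 to 0.18. Hmgcs1, an enzyme of the mevalonate steps, averaged 120 CPM in control and 118 CPM in knockout (-0.01, SE 0.06), and Sqle, the squalene epoxidase, 53.8 and 52.4 CPM (-0.01, SE 0.07). These 2 were chosen for mention after their values were seen. Fdps shares 26.7% of its exon bases with a neighbouring gene model. Fdft1 shares 18.3% with Ctsb and Hmgcs1 12.1% with Gm48342, each on the opposite strand. The levels of Fdps, Fdft1 and Hmgcs1 are therefore uncertain, as is that of Acat2, which has a near copy, Acat3.

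Of the 7 genes of the SREBP system 1 rose and 3 fell. The 2 INSIG genes went opposite ways. Insig2 (chr1:121304353-121332589) had the smallest adjusted p of the 39 genes, with a log2 fold change of 0.36 (SE 0.05, adjusted p = 1.19e-06) and a higher knockout mean at 6 of 6 times. At CT13 the 4 control libraries of Insig2 read 29.5, 25.2, 32.7 and 31.4 CPM, and the 4 knockout libraries 47.4, 55.3, 40.2 and 49.2 CPM. At CT9 the control libraries read 34.8, 33.3, 31.9 and 38.4 CPM and the 3 knockout libraries 48.3, 45.1 and 49.0 CPM. The genotypes did not overlap at these 2 times and overlapped at the other 4, where the control means were 39.5 to 46.4 CPM and the knockout means 46.7 to 54.9 CPM.

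Insig1 (chr5:28071363-28078662), itself a known target of SREBP, fell by 0.22 on the log2 scale (SE 0.06, adjusted p = 0.00688). Its means parted at the later times. Control means were 85.7 ± 13.1 CPM at CT13, 122 ± 11.7 at CT17 and 112 ± 14.0 at CT21, and knockout means 60.5 ± 7.22, 88.3 ± 17.8 and 77.8 ± 13.7 (n = 4 each). At CT17 the control libraries read 113, 131, 111 and 133 CPM and the knockout libraries 66.6, 110, 90.3 and 86.5 CPM, and at CT21 the genotypes also did not overlap. At CT1, CT5 and CT9 the knockout means were 76.1, 59.5 and 75.8 CPM beside control means of 71.0, 59.5 and 73.1 CPM. No single time passed for Insig1, with adjusted p = 0.0546 at CT13, 0.103 at CT17 and 0.0692 at CT21. Without the 5 libraries that stood apart CT13 and CT17 passed (adjusted p = 0.017 and 0.0323).

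Srebf1, which encodes the SREBP form tied mainly to fatty acid genes, was 50.0 to 114 CPM in control libraries (median 78.4) and 48.9 to 101 CPM in knockout (median 64.2). Its fold change was -0.25 (SE 0.07, adjusted p = 0.00562), with the knockout mean lower at 5 of 6 times and overlapping libraries at every time. Srebf2, the form tied mainly to sterol genes, was 87.9 to 150 CPM in control libraries (median 105) and 80.5 to 131 CPM in knockout (median 101), and did not pass (-0.07, SE 0.06, adjusted p = 0.408). Mylip, an E3 ubiquitin ligase that marks lipoprotein receptors for degradation, had control means of 8.22 to 21.0 CPM and knockout means of 6.52 to 15.1 CPM. It fell by 0.35 (SE 0.10, adjusted p = 0.00592), with a lower knockout mean at 6 of 6 times, and the call ended without CT1 in the fit (adjusted p = 0.0824). Scap, the escort of SREBP, and Stard4, a cytosolic sterol carrier, did not pass, with log2 fold changes of 0.08 and -0.12. Per kb of exon, Stard4 had the highest control level of the 39 genes (44.4 CPM per kb), followed by Elovl1 (35.7) and Fads2 (31.9).

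**Figure D2:**
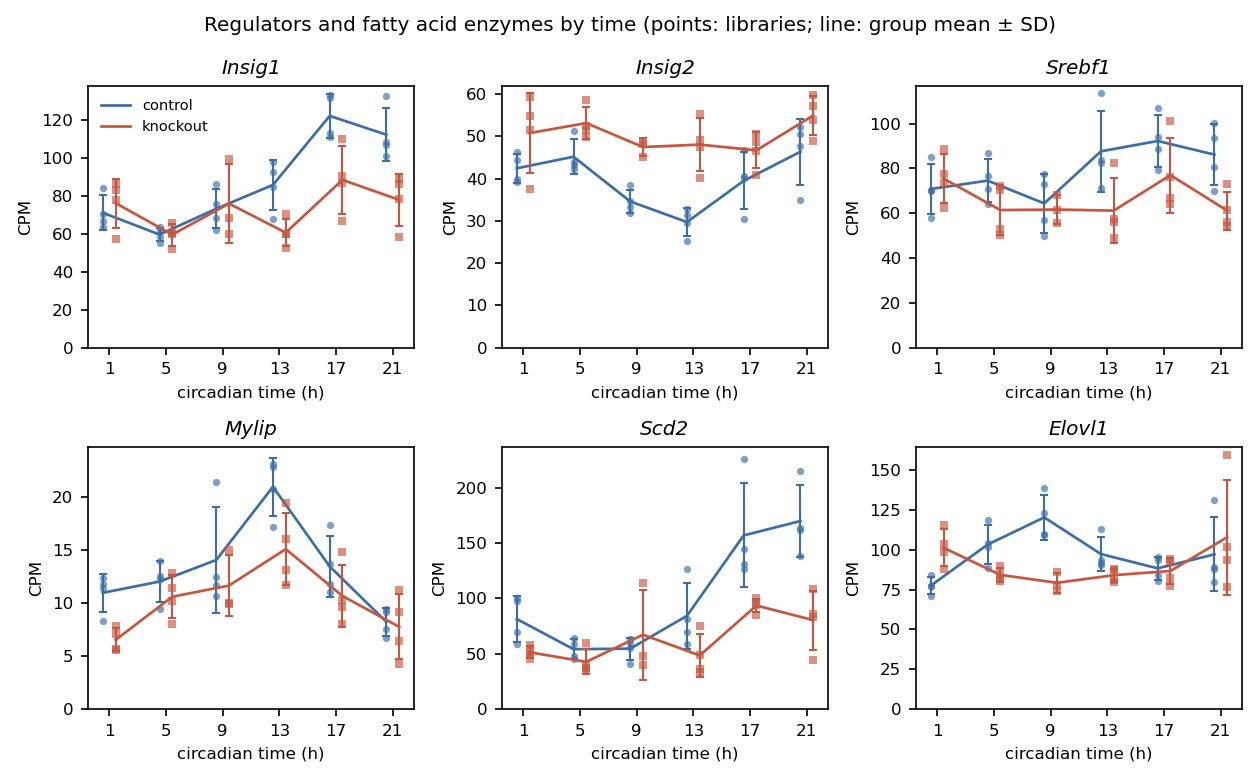
CPM (vertical axes) against circadian time in hours for Insig1, Insig2, Srebf1, Mylip, Scd2 and Elovl1. Points are libraries (blue control, red knockout) and lines join group means with bars of 1 SD; Insig2 in control dips to 29.7 CPM at CT13 while knockout stays at 48.0, and Insig1 and Scd2 rise at CT17 and CT21 to higher means in control than in knockout.

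Of the 13 fatty acid genes 0 rose, 3 fell and 10 did not pass, with a median log2 fold change of -0.10. Scd2 (chr19:44293674-44306864), a desaturase that puts the first double bond into saturated fatty acids, had the largest fold change of the 39 genes, -0.55 (SE 0.11, adjusted p = 3.02e-04), although its knockout mean was higher at CT9. At CT21 the control libraries read 164, 162, 215 and 138 CPM and the knockout libraries 83.4, 85.8, 108 and 44.0 CPM. At CT17 they read 131, 126, 226 and 144 CPM in control and 85.2, 100, 94.7 and 94.2 CPM in knockout. The genotypes did not overlap at CT1, CT17 and CT21. At CT9 the knockout mean of 67.2 ± 40.8 CPM rested on 1 library at 114 CPM beside 39.8 and 47.7 CPM.

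Fads1, the delta-5 desaturase of polyunsaturated fatty acids, fell by 0.21 (SE 0.06, adjusted p = 0.00642), and Elovl5, which lengthens the same fatty acids, by 0.19 (SE 0.06, adjusted p = 0.00948). Both had a lower knockout mean at 6 of 6 times, and the call of Fads1 narrowly ended without CT1 in the fit (adjusted p = 0.05003). Fads2, the delta-6 desaturase, had a log2 fold change of -0.12 and did not pass (adjusted p = 0.105), but passed without the 5 libraries that stood apart (-0.17, adjusted p = 0.00952). The suppliers of carbon and reducing power, Acly (ATP citrate lyase), Acss2 (acetyl-CoA synthetase) and Me1 (malic enzyme), had log2 fold changes of -0.08, 0.01 and 0.06, none of which passed.

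At single times the share of genes called varied from 0.901% to 21.0% of all genes. At CT1 4 of the 39 genes passed, or 10.3% against 21.0% of all genes (12.8% higher and 8.24% lower): Dhcr7 (0.55, adjusted p = 7.2e-04), Ebp (0.57, adjusted p = 0.0154) and Elovl1 (0.39, adjusted p = 0.049) rose and Mylip (-0.74, adjusted p = 0.0313) fell. Knockout CT1 holds 3 of the 5 libraries that stood apart, and without those 5 none of the 4 calls remained, with fold changes of 0.40, 0.20, 0.31 and -0.67 from a single knockout library assumed to vary like the other groups. The call of Elovl1 at CT1 also ended when any of 42 single libraries was left out. Of the 11 enterocyte markers 4 rose at CT1 and 10 had a fold change above 0, with a median of 0.46, and their part in the 3 rises was not tested. At CT5 0 of 39 passed in edgeR, against 0.901% of all genes, with 2 at an unadjusted p under 0.05, 0 in DESeq2 and 0 in limma-voom. At CT9 2 passed, against 4.01%, Insig2 (0.46, adjusted p = 0.0448) and Elovl1 (-0.60, adjusted p = 0.0154). The Insig2 call at CT9 ended when any of 38 single libraries was left out. At CT13 3 passed, against 3.48%, Insig2 (0.69, adjusted p = 3.3e-04), Msmo1 (-0.49, adjusted p = 0.0195) and Fasn (-1.53, adjusted p = 0.0346). Of these, the Insig2 call was kept in all 47 fits that left out 1 library and in 10 other settings. At CT17 0 passed in edgeR, against 2.23%, with 3 at an unadjusted p under 0.05, 0 in DESeq2 and 2 in limma-voom. At CT21 Scd2 passed (-1.08, adjusted p = 0.0279), 1 gene against 1.45%, and ended without the 5 libraries (adjusted p = 0.184). The genotypes did not overlap for 6 of the 39 genes at CT1 (16.7% of all genes), 1 gene at CT5 (7.75%), 4 genes at CT9 (12.3%), 6 genes at CT13 (13.7%), 5 genes at CT17 (10.9%) and 2 genes at CT21 (4.32%).

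The next question was which of these genes varied over the day. A 24-h cosine passed for 13 of 39 genes in control, or 33.3% against 21.1% of all genes, and for 5 in knockout, or 12.8% against 15.0%. The knockout count moved with single libraries: 14 genes passed without knockout CT9 replicate 3 and 3 without knockout CT9 replicate 2. The share of all genes called in those fits was not set beside these counts. Amplitude is the height of the fitted peak above the mid-level, in log2 units. In control the smallest adjusted p-values were those of Scd2 (amplitude 0.92, SE 0.13, peak CT19.0, adjusted p = 4.3e-07), Insig1 (0.50, SE 0.08, peak CT17.8, adjusted p = 6.5e-07), Pmvk (0.56, SE 0.09, peak CT19.3, adjusted p = 2.9e-06) and Mylip (0.50, SE 0.11, peak CT11.8, adjusted p = 4.2e-04). Pmvk, a kinase of the mevalonate steps, went from 17.5 ± 2.84 CPM at CT5 to 40.0 ± 15.0 CPM at CT21 in control. Its CT21 libraries read 61.7, 30.5, 38.4 and 29.6 CPM, the first of them a library that stood apart. The other 9 were Insig2, Fads2, Msmo1, Fads1, Dhcr7, Cyp51, Acat2, Tm7sf2 and Elovl1, with amplitudes from 0.20 to 0.36.

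Most of these control peaks fell late in the cycle, with Msmo1 at CT14.9, Dhcr7 at CT17.6, Acat2 at CT18.9, Tm7sf2 at CT19.3, Cyp51 at CT19.8 and Fads1 at CT21.3. Insig2 and Fads2 peaked near the turn of the day, at CT0.109 and CT0.475. Elovl1, an elongase of saturated fatty acids, peaked at CT9.54 and Mylip at CT11.8. Of the control rhythms, those of Elovl1 and Tm7sf2 ended when 11 and 18 single libraries, respectively, were left out in turn.

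In knockout the 5 genes were Mylip (amplitude 0.53, peak CT11.7, adjusted p = 0.00268), Pmvk (0.36, peak CT21.8, adjusted p = 0.00783), Dhcr7 (0.18, adjusted p = 0.0217), Ebp (0.26, adjusted p = 0.0249) and Scd2 (0.44, peak CT17.9, adjusted p = 0.0289). Mylip had nearly the same amplitude and peak in both genotypes. Those of Pmvk, Dhcr7 and Ebp ended without the 5 libraries that stood apart (adjusted p = 0.0554, 0.104 and 0.652). That of Scd2 ended when any of 6 single libraries was left out, without a filter on low counts (adjusted p = 0.0736) and without CT1 in the fit (adjusted p = 0.0871). A rhythm past the threshold in one genotype and not in the other does not show a difference, which was tested by itself. That test passed for 1 gene, Elovl1, or 2.56% against 1.57% of all genes.

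Elovl1 (chr4:118428093-118432953) had adjusted p = 0.0178 for the difference, with amplitudes of 0.20 and 0.21 and peaks at CT9.54 in control and CT22.2 in knockout. Its knockout rhythm did not itself pass (adjusted p = 0.0509). At CT9 its control libraries read 123, 139, 109 and 110 CPM and its knockout libraries 73.9, 85.9 and 78.0 CPM. At CT1 control read 71.3, 77.5, 77.2 and 84.1 CPM and knockout 115, 87.8, 104 and 98.4 CPM. The genotypes were thus apart in opposite directions at these 2 times, and 3 of the 4 knockout CT1 libraries are among those that stood apart. At CT21 the highest value, 160 CPM, was in knockout replicate 4, and the highest control value, 132 CPM, in control replicate 1, both also from those libraries. Without CT1 in the fit the difference did not pass (adjusted p = 0.192). For Scd2, Insig1 and Msmo1, whose control amplitudes were 0.92, 0.50 and 0.31 and knockout amplitudes 0.44, 0.19 and 0.14, the difference had adjusted p = 0.295, 0.146 and 0.146.

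**Figure D3:**
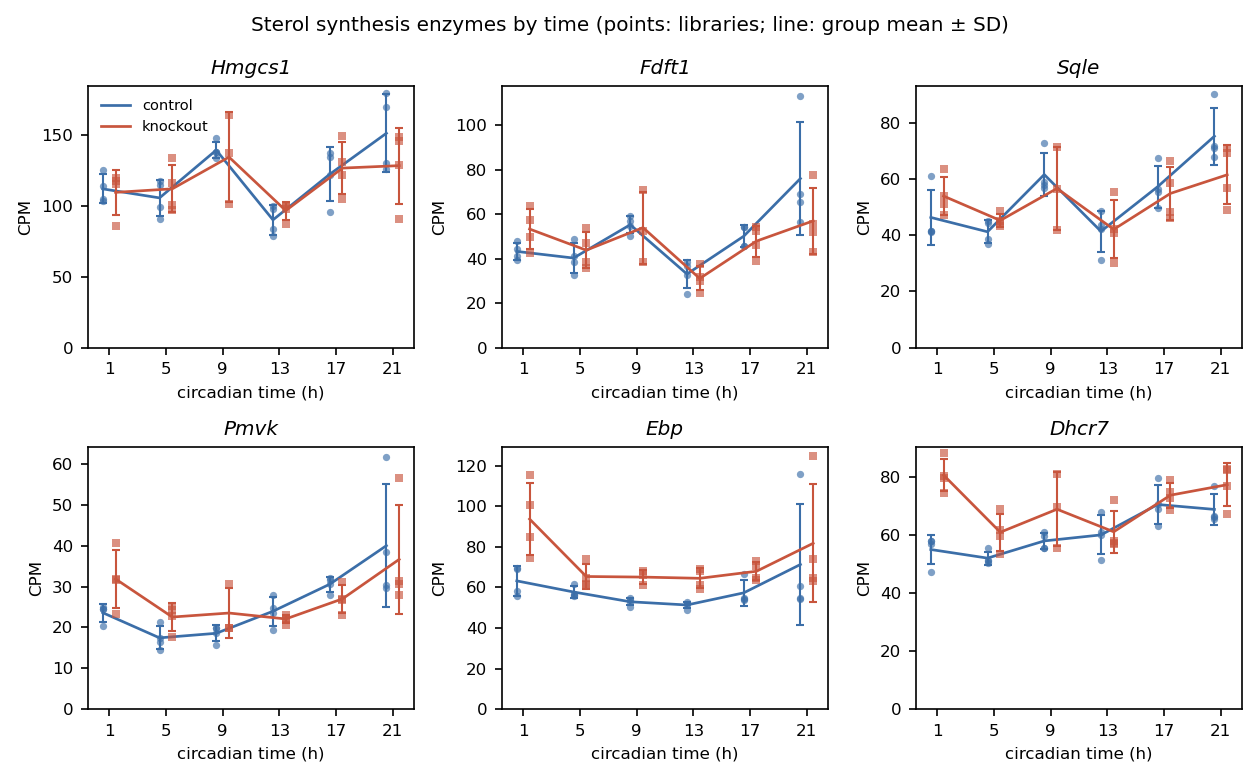
CPM (vertical axes) against circadian time in hours for the sterol enzymes Hmgcs1, Fdft1, Sqle, Pmvk, Ebp and Dhcr7, with libraries as points (blue control, red knockout) and group means with bars of 1 SD. Hmgcs1, Fdft1 and Sqle rise at CT9 and again at CT21 in control, with CT13 lower than both, while Ebp and Dhcr7 have higher knockout means throughout.

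The cosine allows 1 peak a day, and several sterol enzymes did not follow 1. When the 6 control means were tested for any difference in place of the cosine, 21 of 39 genes passed in control, against 15.7% of all genes, 8 in knockout, against 12.8%, and 1, again Elovl1, in the difference, against 1.27%. Of the 19 sterol enzymes 11 passed in control by that test, among them Fdft1 (adjusted p = 8.6e-05), Sqle (1.6e-04) and Hmgcs1 (0.00195), all 3 without a cosine call (0.147, 0.167 and 0.505) and chosen for mention after their values were seen. Sqle averaged 46.3, 41.2, 61.5, 41.4, 57.2 and 75.2 CPM from CT1 to CT21 in control. Fdft1, which makes squalene, averaged 43.3, 40.3, 55.3, 33.1, 50.1 and 76.1 CPM, and Hmgcs1 112, 106, 139, 90.1, 122 and 151 CPM. Each had a high mean at CT9, a low one at CT13 and its highest at CT21. In knockout the means at CT9 and CT13 were 56.6 and 42.1 CPM for Sqle, 54.0 and 31.1 CPM for Fdft1 and 134 and 96.7 CPM for Hmgcs1. The test over the 6 knockout means passed for Fdft1 (adjusted p = 0.0154) and not for Sqle (0.0902) or Hmgcs1 (0.133).

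Across the 19 sterol enzymes the geometric mean per library in control was lowest at CT5, 28.8 ± 1.21 CPM, and highest at CT21, 43.6 ± 5.70 CPM. CT21 held the highest control mean of 14 of the 19 enzymes and the highest knockout mean of 10. The lowest mean fell at CT5 for 10 enzymes in control and at CT13 for 10 in knockout. In knockout the geometric mean was lowest at CT13, 29.5 ± 1.96 CPM, and highest at CT21, 39.5 ± 2.48 CPM. Control CT21 replicate 1 and knockout CT21 replicate 4 stood apart from the rest, and control replicate 1 had a geometric mean of 52.1 CPM beside 40.1 to 41.5 CPM in the other 3. Without the 5 libraries that stood apart, CT21 held the highest control mean of 13 enzymes, at a geometric mean of 40.8 ± 0.681 CPM (n = 3), and the highest knockout mean of 12, at 38.8 ± 2.48 CPM (n = 3). The lowest mean then fell at CT5 for 10 enzymes in control and at CT13 for 13 in knockout.

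Scd1 and Thrsp varied most between libraries of 1 group. The median ratio of the highest to the lowest library of a group was 21.6 for Scd1 and 10.5 for Thrsp, followed by 2.99 for Me1 and 1.89 for Mvd, against a median of 1.37 over the 39 genes. Fasn had a median ratio of 1.59 and its largest, 9.69, in control CT13, where Me1 also had its largest, 9.67. Scd1, Thrsp and Fasn were chosen for description after their values were seen. Scd1, a desaturase closely related to Scd2, ranged from 1.85 to 1337 CPM over control libraries and from 3.36 to 301 CPM over knockout libraries. Thrsp encodes a nuclear protein tied to lipid synthesis, and Fasn the fatty acid synthase. Neither these 3 nor Acaca, the acetyl-CoA carboxylase, passed in the genotype mean, with fold changes of 0.08 (SE 0.50) for Scd1, 0.04 (SE 0.43) for Thrsp, -0.19 (SE 0.18) for Fasn and -0.12 (SE 0.12) for Acaca.

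Levels of Scd1, Thrsp and Fasn moved with adipocyte transcripts. In 9 libraries, 6 of them control, Adipoq, Retn, Plin1 and Lep all had 0 counts. Scd1 was 1.85 to 31.2 CPM (median 5.09) in those 9 and 6.06 to 1337 CPM (median 81.1) in the other 38. Thrsp was 0.184 to 2.89 CPM and 0.952 to 115 CPM, and Fasn 54.3 to 101 CPM and 58.8 to 695 CPM. Scd2 was 37.2 to 226 CPM (median 81.3) in the 9 libraries and 33.3 to 164 CPM (median 61.2) in the others. These ranges pool all times, and Scd2 was itself rhythmic in control. The 9 include control CT17 replicates 1 and 3 and control CT21 replicate 3, at 131, 226 and 215 CPM, and the rest of them read 37.2 to 83.4 CPM. Within control CT13, Scd2 was highest in replicate 2, at 126.5 CPM beside 59.2 to 81.3 CPM. Whether adipose tissue in the samples gave the levels of Scd1, Thrsp and Fasn was not tested. The summed level of the 10 adipocyte markers spanned 220 to 2248 CPM over control libraries and 174 to 1066 CPM over knockout libraries, but most of it was Pck1 (mean 354 CPM in control and 264 CPM in knockout), which was itself rhythmic in control (adjusted p = 0.00185) and lower in knockout (adjusted p = 0.0197). A term for the summed level of Adipoq, Retn, Plin1 and Lep was therefore added to the fit after the data were seen, and with it Scd2 had a fold change of -0.55 (adjusted p = 3.8e-04). The highest value of Scd1, Thrsp and Fasn was in control CT13 replicate 2, with 1337, 115 and 695 CPM, and Adipoq there was 72.6 CPM. Acaca, Acly and Me1 were also highest there, at 153, 248 and 85.7 CPM. The rest of control CT13 read 32.5 to 43.7, 80.6 to 96 and 8.86 to 17.2 CPM. The Fasn call at CT13 rested on control CT13 replicate 2: without it the fold change was -0.09 (adjusted p = 0.959). With the sum of Adipoq, Retn, Plin1 and Lep as a term it was -0.89 (adjusted p = 0.0733). The call also ended without knockout CT13 replicate 1, 2 or 4, without a filter on low counts (edgeR adjusted p = 0.0916) and in limma-voom (adjusted p = 0.324). With only the CT13 groups in the fit it ended as well (edgeR adjusted p = 0.363).

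**Figure D4:**
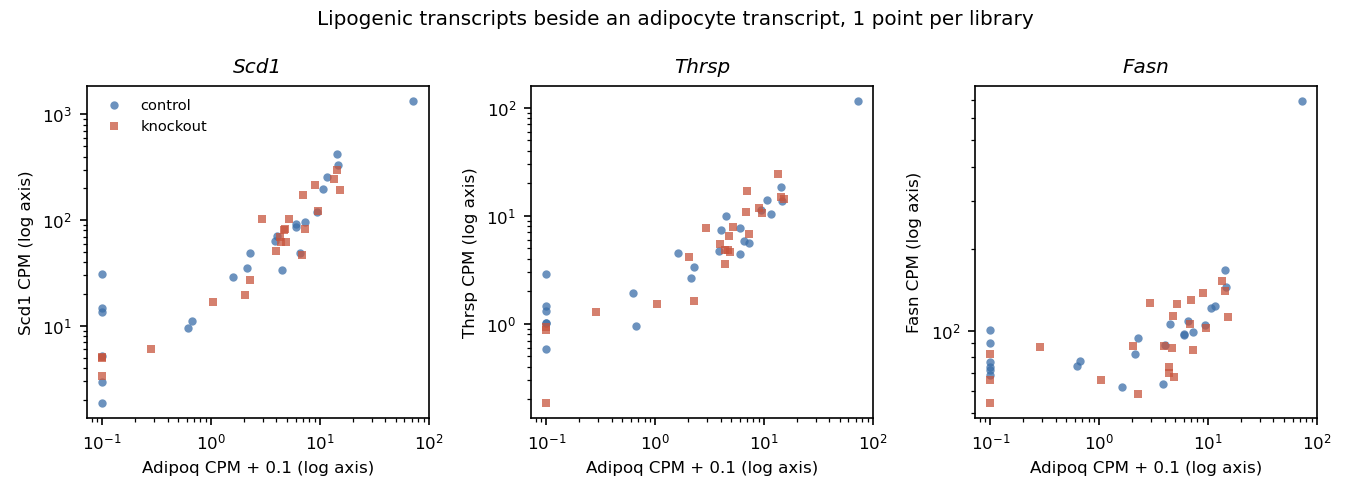
CPM of Scd1, Thrsp and Fasn (vertical log axes) against CPM of the adipocyte transcript Adipoq plus 0.1 (horizontal log axis), 1 point per library (blue control, red knockout). Libraries without Adipoq counts stand at the left edge with Scd1 at or below 31.2 CPM, and control CT13 replicate 2 stands alone at the upper right with Scd1 at 1337 CPM.

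Lists of genes around these pathways were described as well. Of 58 such genes 57 were tested (Elovl3 was not), and 7 rose and 7 fell in the genotype mean, or 24.6% against 23.6% of all genes. Genes past the threshold with a log2 fold change of at least 0.4 in size were 3, all lower in knockout at 6 of 6 times. Abca1, the transporter that moves cholesterol out of cells, was 11.8 to 175 CPM in control libraries (median 60.8) and 4.77 to 73.2 CPM in knockout (median 27.8), with a fold change of -1.11 (SE 0.15, adjusted p = 5.7e-07). Abcg1, another sterol exporter, went from a mean of 3.89 to 2.51 CPM (-0.59, SE 0.14, adjusted p = 0.00137). Erlin1, a membrane protein of the endoplasmic reticulum in the control of SREBP, went from 112 to 79.3 CPM (-0.48, SE 0.07, adjusted p = 2.6e-07). By list, 1 of 16 sterol transport genes rose and 3 fell, 2 of 12 genes of SREBP processing rose and 2 fell, 3 of 10 genes of the isoprenoid branch rose and 0 fell, and of 19 further fatty acid genes 1 rose and 2 fell. The rhythm difference passed for 2 of the 57, against 1.57% of all genes: Acsl3 (adjusted p = 0.0346) and Acsl5 (adjusted p = 7.8e-06). Both activate fatty acids and were named after their values were seen.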

How the data were processed

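The authors deposited unscaled counts of reads by gene, with 1 column per library. RNA was purified and libraries were prepared with the TruSeq Stranded mRNA kit, per the labels' protocols. The tools included Trimmomatic 0.39, STAR 2.7.5c and featureCounts 1.4.6 on mm10, per the submitters' processing notes. The sources used here name no strand setting, annotation release or rule for multi-mapping reads. A column matched 47 of 48 libraries, and the other, from knockout CT9, was not analysed here. Of 55401 gene IDs, 54349 matched GENCODE M21 with their version and 792 without it, and 260 matched nothing.

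The count model was edgeR 4.0.16 (R 4.3.3), with filterByExpr (minimum count 10, minimum total 15), TMM scaling and a quasi-likelihood fit with a mean per group (35 residual degrees of freedom) or a 24-h cosine and sine per genotype (41). The threshold was an adjusted p of 0.05 over 15646 genes. The scripts were tested on simulated data: of 100 genes changed by 0.5 on the log2 scale in the genotype mean, 83 were recovered. Of 100 genes given a rhythm of amplitude 0.5 in control only, 72 were recovered as control rhythms and 41 as differences of rhythm. A difference of rhythm that did not pass is therefore not shown to be absent. Within groups no pair of libraries agreed within sampling noise (lowest chi-square per degree of freedom 3.49 over 69 pairs).

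The genes, lists, tests and alternatives were chosen with earlier results of these data known. Values by library or group were given for the 4 genes with the smallest adjusted p in the genotype mean, the control rhythm and the rhythm difference, and for Srebf1 and Srebf2. Other genes past a threshold were named with their size. Related genes were named at a log2 fold change of at least 0.4. Promoter stretches were chosen as stated beside them. Alternatives were DESeq2 1.42.0, its size factors, upper quartile scaling, limma-voom (limma 3.58.1), no filter, a term for the numbering of libraries in the labels (15 against 32 libraries), other sets of libraries and an F test over the 6 times. The numbering goes partly with time: all control libraries of CT1, CT5 and CT21 lie in the set of 32, and all knockout CT9 libraries used in the set of 15. At CT1 it also goes partly with genotype, because knockout CT1 replicates 1 and 2 lie in the set of 15. Numbering can therefore not be fully told apart from time or, at CT1, from genotype. With that term the control rhythms of Elovl1 and Tm7sf2 ended (edgeR adjusted p = 0.111 and 0.0518). So did the genotype calls of Elovl1 and Mylip at CT1 (edgeR adjusted p = 0.106 and 0.0559) and of Fasn at CT13 (0.12).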

Additional observations from a re-analysis of the deposited data

Results flagged for a closer look

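In 143 sets of 4 libraries (1 gene in 1 group) 16 held a library far from the other 3, by Dixon's ratio of the gap to the nearest library over the range of the set, at its 95% critical value. Chance alone sets apart about 1 in 20 such sets when they are independent and not chosen by their values. Here sets of different genes share libraries, and Scd1, Thrsp and Fasn were chosen after their values were seen. The count of 16 can therefore not be weighed against that rate. Values are in CPM, with the range of the other 3 libraries. Control CT13 replicate 2 stood high for Scd1 (1340, others 9.55 to 196), Thrsp (115, others 1.91 to 13.9), Fasn (695, others 71.7 to 121) and Elovl1 (113, others 90.5 to 93.9). Control CT21 replicate 1 stood high for Dhcr7 (76.7, others 65.5 to 66.6) and Ebp (116, others 54.1 to 60.8). Control CT1 replicate 1 stood low for Dhcr7 (47.2, others 56.7 to 57.9) and Pmvk (20.2, others 24.5 to 25.1).

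Other libraries stood high for 1 gene each, or 2 where named. Ebp was 61.9 in control CT5 replicate 2 (others 55.9 to 56.9) and 66.7 in control CT17 replicate 1 (others 53.8 to 54.6). Insig2 was 51.4 in control CT5 replicate 4 (others 42.3 to 43.8). Mylip was 21.4 in control CT9 replicate 1 (others 10.7 to 12.5). Thrsp was 11.2 in control CT17 replicate 4 (others 1.33 to 2.65). Dhcr7 was 72.0 in knockout CT13 replicate 1 (others 56.8 to 57.9). Scd2 was 59.4 in knockout CT5 replicate 4 (others 35.6 to 38.5). Pmvk was 56.7 in knockout CT21 replicate 4 (others 28.0 to 31.4).

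The rhythm of Elovl1 differed between the genotypes by the test of the difference itself (edgeR adjusted p = 0.0178). Without CT1 in the fit this difference did not pass (edgeR adjusted p = 0.192).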

How the results depend on the processing

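In the genotype mean 7 of 12 calls (Dhcr7, Ebp, Elovl5, Insig1, Insig2, Scd2 and Srebf1) were kept in all 47 fits that left out 1 library and in 10 other settings, as were 10 of 13 control rhythms in 47 fits and 11 settings. The other counts moved as follows, each beside the reported count, and the cause was not tested. They are counts of the 39 genes without the share of all genes called in the same fit. A shift common to all genes would therefore not show. Without a filter, 2 of 39 genes passed at CT1 (reported 4), 1 at CT9 (2), 1 at CT13 (3), 0 at CT21 (1) and 3 for the knockout rhythm (5). Without the 5 libraries that stood apart, 0 genes passed at CT1 and CT21, 4 at CT9, 6 at CT13 and 2 at CT17 (0). limma-voom gave 4 at CT9, 7 at CT13, 2 at CT17, 11 knockout rhythms and 3 differences of rhythm (1). With only the groups of that time in the fit, 1 passed at CT17 and 0 at CT21. With the library numbering as a term, 2 passed at CT1 and 10 knockout rhythms. DESeq2 gave 9 knockout rhythms, and its size factors 1 call at CT9. The F test over 6 times gave 21 control rhythms (13) and 8 knockout rhythms. With the sum of the 10 adipocyte markers as a term, added after the data were seen and mostly a measure of Pck1, 0 passed at CT21 and 8 knockout rhythms. With the sum of Adipoq, Retn, Plin1 and Lep as a term, added later, each count stayed within 1.5 times the reported one. Without CT1, also added, 2 knockout rhythms and 0 differences passed.

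Leaving out 1 library at a time gave 1 to 7 genes at CT1, 0 to 0 at CT5 and CT17, 0 to 3 at CT9, 1 to 5 at CT13, 0 to 2 at CT21, 11 to 13 in the genotype mean (3 to 4 higher, 7 to 10 lower), 11 to 17 control rhythms, 3 to 14 knockout rhythms and 1 to 1 difference. The CT1 count was 1 without knockout CT1 replicate 1 or control CT1 replicate 1, 2 without control CT1 replicate 3 or 4, and 7 without knockout CT1 replicate 4. The CT9 count was 0 without control CT9 replicate 2 or knockout CT9 replicate 2 or 4 and 1 without most others. The CT13 count was 5 without control CT13 replicate 1 and 1 without knockout CT13 replicate 4. The CT21 count was 2 without control CT21 replicate 1 and 0 without knockout CT21 replicate 1, 2 or 4 or control CT21 replicate 2 or 3. The knockout rhythm count was also 11 without control CT21 replicate 1 or knockout CT1 replicate 4, 9 without knockout CT21 replicate 1 and 8 without knockout CT21 replicate 3. No paired analysis was possible because the labels give no replicate numbers that the groups share. At this depth Fdps, at a control mean of 3.10 CPM, and Thrsp in its lowest libraries rest on few counts, and an observed 0 allows up to 3 counts.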
